A study of Mus musculus with 10 samples.

Results

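The genes described here belong to interferon signalling and innate sensing, and their transcription was followed in mouse embryonic stem cells. They were picked by a pattern of gene symbols, which uses no measured value but was set with earlier results of these data known. The set holds the Irf and Stat transcription factors, the Jak kinases with Tyk2, the interferon receptors, the Toll-like receptors with Myd88, sensors of RNA and their partners, and the Oas, Ifit, Isg, Mx and Gbp effector families. The rule found 74 genes among the 24901 of the deposited table, each listed once. Of these, 41 averaged at least 0.1 RPKM over the 6 Elongin A libraries and were tested (55.4%, against 60.9% of all genes). The other 33 lay below that level and are given as values only. The signalling genes of the pathway were transcribed in these cells, while most inducible effectors were close to silent. The genes of the set that passed the test were Oas1f and Oas1g, which fell in EloA_K754R. Neither passed when any 1 library was left out, as held for most of the genes called in that comparison. No gene of the set passed in EloA_K754M.

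Nascent RNA was measured by Bru-seq: cells took up 2 mM bromouridine for 10 min, and an antibody captured the labelled RNA for sequencing. Values are intronic RPKM, a read density over the introns of each gene that corrects for their length and for library depth. EloA_K754M and EloA_K754R are edited cells in which the lysine K754 of Elongin A is replaced by methionine or arginine. Elongin A is part of a complex that helps RNA polymerase II to elongate transcripts. EloA_WT carries the unedited protein. Eed_null lacks Eed, without which the histone methyltransferase PRC2 does not work, and CJ7_WT is its wild type. Every group had 2 samples, but Eed_null and CJ7_WT are each present as 1 column, which its header names an average and which is called pooled here. All groups were grown with LIF, 1 µM PD0325901 (a MEK inhibitor) and 3 µM CHIR99021 (a GSK3 inhibitor), and no label mentions an added interferon or a virus. The growth protocol names mouse embryonic fibroblast feeders that were depleted by plating, and the extraction protocol names feeder-free dishes. The labels give no clone numbers. They name the line CJ7 for both edited groups and CCE28 for EloA_WT, so the edit and the line cannot be told apart. For Eed_null, 2 label fields read EloA null and CCE28, against the titles and column names, which were followed here.

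Interferons bind paired receptor chains on the cell surface, and the JAK kinases held by those chains phosphorylate STAT proteins. Phosphorylated STAT proteins join IRF9 and bind the interferon-stimulated response element (ISRE) of target genes, or pair with each other and bind the gamma-activated site (GAS). Interferon itself is made when sensors such as the products of Ddx58 (RIG-I) and Ifih1 (MDA5) detect foreign RNA and signal through Mavs to IRF3 and IRF7. Pluripotent cells are known for a weak interferon response. In mouse embryonic stem cells the same class of kinases carries the LIF signal from Lifr and Il6st (gp130) to Stat3, which supports self-renewal.

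The motifs that these factors bind are common among the genes of the set. RefSeq promoters (300 bases around a gene's start, build GRCm38.p6) were found for 55 of the 74 genes. The ISRE core, GAAA and GAAA with any 2 bases between them, read on both strands, was in the promoters of 19 of them (34.5%), against 3.99% of all 27025 genes in the table. The GAS pattern TTCNNNGAA, which is its own reverse complement, was in 16 (29.1%), against 9.55% of all genes. Neighbouring ISRE matches can overlap each other. The promoters shown are those of the tested Oas1 genes that hold a match, and of Eif2ak2 and Stat2. Eif2ak2 is described for EloA_K754M and Eed_null, and Stat2 for Eed_null. Other genes with a match are not shown, among them the untested Oas3, whose ISRE match began 75 bases before its start. They run 5′ to 3′ along the gene, and capitals mark ISRE and GAS matches.
Oas1a (chr5:120907476-120907775, minus strand): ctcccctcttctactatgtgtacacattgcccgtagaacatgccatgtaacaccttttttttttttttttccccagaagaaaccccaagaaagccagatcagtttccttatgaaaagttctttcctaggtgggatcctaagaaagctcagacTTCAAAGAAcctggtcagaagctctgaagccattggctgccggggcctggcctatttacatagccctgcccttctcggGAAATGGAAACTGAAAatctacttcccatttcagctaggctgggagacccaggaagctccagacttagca
Oas1g (chr5:120887564-120887863, minus strand): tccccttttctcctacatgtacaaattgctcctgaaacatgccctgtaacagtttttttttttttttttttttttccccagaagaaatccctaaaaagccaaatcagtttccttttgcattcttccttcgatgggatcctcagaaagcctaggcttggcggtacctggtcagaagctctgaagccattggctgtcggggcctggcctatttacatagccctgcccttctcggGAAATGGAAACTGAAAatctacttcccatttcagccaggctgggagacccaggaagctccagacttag
Oas1c (chr5:120812465-120812764, minus strand): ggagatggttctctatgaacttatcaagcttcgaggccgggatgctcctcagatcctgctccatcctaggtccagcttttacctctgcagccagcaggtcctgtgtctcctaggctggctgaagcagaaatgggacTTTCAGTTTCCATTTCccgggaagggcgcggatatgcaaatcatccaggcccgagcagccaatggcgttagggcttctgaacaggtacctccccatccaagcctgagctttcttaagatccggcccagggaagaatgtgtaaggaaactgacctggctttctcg
Eif2ak2 (chr17:78882523-78882822, minus strand): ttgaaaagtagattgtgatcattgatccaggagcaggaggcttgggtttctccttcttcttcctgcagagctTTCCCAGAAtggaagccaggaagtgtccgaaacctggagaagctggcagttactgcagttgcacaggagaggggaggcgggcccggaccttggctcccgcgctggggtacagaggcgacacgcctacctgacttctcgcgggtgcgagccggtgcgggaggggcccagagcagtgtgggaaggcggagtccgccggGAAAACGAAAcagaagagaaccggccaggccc
Stat2 (chr10:128270248-128270547, plus strand): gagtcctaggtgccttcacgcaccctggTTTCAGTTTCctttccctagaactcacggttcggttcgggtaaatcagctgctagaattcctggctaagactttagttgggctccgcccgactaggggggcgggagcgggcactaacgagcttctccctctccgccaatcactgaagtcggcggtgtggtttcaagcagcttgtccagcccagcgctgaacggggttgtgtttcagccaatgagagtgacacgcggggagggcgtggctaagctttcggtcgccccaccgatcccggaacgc
Oas1a and Oas1g shared the same run of 2 overlapping ISRE matches, which began 20 and 18 bases before their starts. Their promoters were 85.3% identical over 306 aligned positions, whereas the other pairs among Oas1a, Oas1c, Oas1f and Oas1g were between 49.3% and 50.9% identical. Oas1c held 2 overlapping matches from 114 bases before its start, on the other strand. Oas1a also held a GAS match 98 bases before its start, and Eif2ak2 held a GAS match 178 bases before and an ISRE match 18 bases after its start. Oas1f and Trim25 held neither pattern in this window. A match is a description of these letters and was not tested as a binding site.

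Whole reads recovered from the RPKM numbered 26367889 to 39186109 in the 6 Elongin A libraries, 72385470 in pooled Eed_null and 86754342 in pooled CJ7_WT. All 11 listed stem cell markers in the table, among them Nanog and Zfp42, had a signal in every library. Pou5f1, which encodes Oct4, had 20.5 and 36.5 RPKM in EloA_K754M, 15.1 and 19.8 RPKM in EloA_K754R and 19.2 and 24.7 RPKM in EloA_WT. The edits change a protein and not a level, so the intronic signal of Tceb3, which encodes Elongin A, does not check the labels: it had 1.46 and 1.98 RPKM in EloA_K754M, 1.12 and 1.30 RPKM in EloA_K754R and 1.83 and 2.03 RPKM in EloA_WT. Eed itself had 7.97 RPKM in Eed_null and 10.0 RPKM in CJ7_WT, and the introns read here need not include what the null allele lacks. Of 11 macrophage and blood markers, 3 exceeded 0.1 RPKM in every library but EloA_K754M replicate 2, where 8 did, and Cd14 was at 0 throughout. In bulk RNA, fewer cells of a type and less RNA per cell cannot be told apart.

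The 3 libraries with the number 2 stood apart at silent genes, EloA_K754M replicate 2 most of all. The 33 genes of the set below the filter had a median of 0.00922 and 0.101 RPKM in the EloA_K754M libraries, 0.0143 and 0.0426 in EloA_K754R and 0.0132 and 0.0425 in EloA_WT. The genes below the filter in the whole table showed the same split. They took 0.967% and 5.64% of recovered reads in EloA_K754M, 1.06% and 2.73% in EloA_K754R and 0.885% and 2.19% in EloA_WT. The split ran between replicate numbers and not between genotypes. The 11 Gbp genes, guanylate-binding proteins that act against intracellular pathogens, make it plain: together they had 58 and 633 reads in EloA_K754M, 80 and 423 in EloA_K754R and 72 and 318 in EloA_WT. Values near 0.1 RPKM in these 3 libraries therefore stand little above what silent genes showed there.

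**Figure D1:**
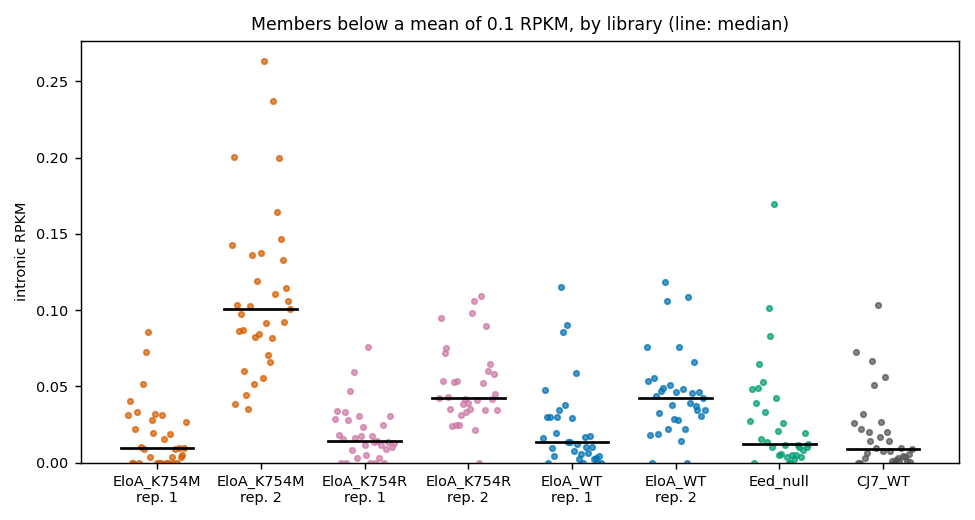
Intronic RPKM of the 33 genes below a mean of 0.1 RPKM, by library. Each point is 1 gene, the line is the median, and the horizontal position within a library has no meaning. The medians of the 3 replicate 2 libraries (0.101, 0.0426 and 0.0425) lie above those of the replicate 1 libraries (0.00922, 0.0143 and 0.0132), and EloA_K754M replicate 2 is highest.

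The inducible effectors were mostly silent in every group. Of the 7 Ifit, Isg and Mx genes, only Isg20, an RNA exonuclease, reached the filter, with 0.292 and 0.207 RPKM in EloA_K754M, 0.265 and 0.153 in EloA_K754R and 0.142 and 0.0840 in EloA_WT. Isg15 encodes a ubiquitin-like modifier and is among the most strongly induced interferon targets. It had 0.103 RPKM in EloA_K754M replicate 2, 0.0719 in EloA_K754R replicate 2 and no signal in the EloA_WT libraries. Its introns are short, so this is no measure of silence. Among the Gbp genes, Gbp4 alone reached the filter, at 0.0387 and 0.233 RPKM in EloA_K754M, 0.0416 and 0.142 in EloA_K754R and 0.0591 and 0.200 in EloA_WT. In each group it was high in replicate 2 and low in replicate 1, like the silent genes, and the annotated Gbp4, Gbp8 and Gbp9 genes overlap on the same strand, so their reads cannot be told apart. Of the Toll-like receptor genes and Myd88, 11 in all, Tlr2, Tlr4, Tlr5 and Myd88 were tested. Tlr9 was above 0 in EloA_K754M replicate 2 alone, at 0.0819 RPKM.

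The signalling genes were transcribed at modest levels. By mean over the 6 libraries, the 7 Stat genes ranged from 0.133 (Stat5a) to 2.62 RPKM (Stat3) and the 4 kinases from 0.661 (Jak2) to 1.64 RPKM (Jak1). The 4 receptor chains ranged from 0.157 (Ifngr2) to 1.13 RPKM (Ifnar1). The gene with the highest level was Trim25, the ubiquitin ligase that helps to activate RIG-I, at 4.70 RPKM. In all, 11 of the 74 genes averaged 1 RPKM or more.

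**Figure D2:**
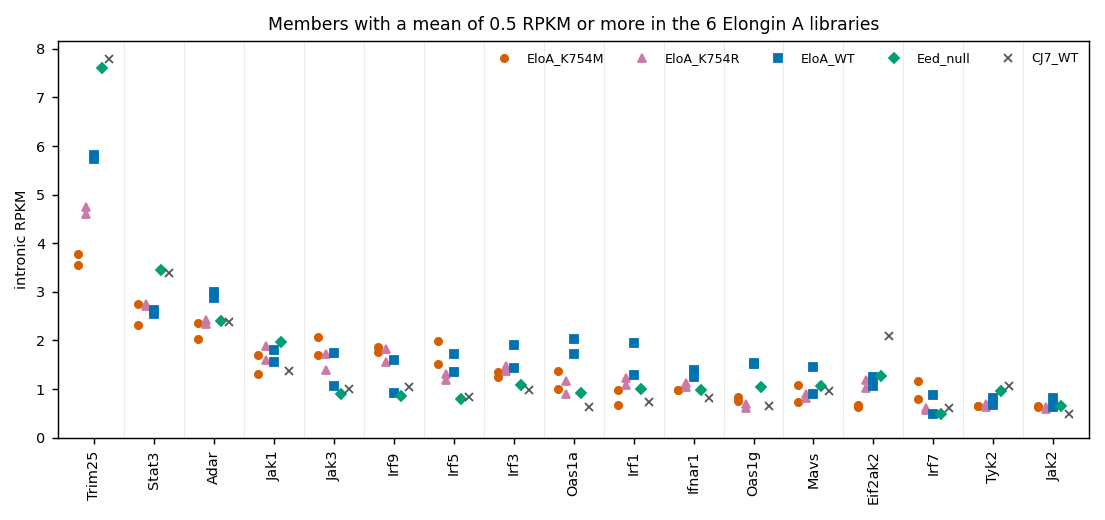
Intronic RPKM of the genes of the set reported here with a mean of at least 0.5 RPKM in the 6 Elongin A libraries, ordered by that mean. Each point is 1 library (EloA_K754M, EloA_K754R, EloA_WT) or 1 pooled column (Eed_null, CJ7_WT). Trim25 stands highest, with the EloA_K754M libraries at 3.56 and 3.79 RPKM, below EloA_K754R at 4.74 and 4.59 and EloA_WT at 5.81 and 5.73.

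For EloA_K754M against EloA_WT, no gene of the set passed the test. With limma and Benjamini-Hochberg adjustment over all 15161 genes, 0 of the 41 tested genes were called, against 0.218% of all genes (33 genes), of which 0.204% were lower and 0.0132% higher. At an unadjusted p under 0.05, 9 of the 41 were lower (background 10.7%) and 0 higher (background 4.65%), and limma's voom on recovered reads also called 0, as did the test without any 1 of the 6 libraries. Of all genes, voom called 342. The median log2 change of the 41 was -0.15, against -0.06 for all genes, with 14 positive (42.6% of all genes) and 27 negative (57.4%).
For EloA_K754R against EloA_WT, Oas1f and Oas1g fell and no gene of the set rose. These 2 of 41 compare with 2.79% of all genes called lower (423 genes), the 0 called higher with 0.686% (104 genes), and the 2 in either direction with 3.48%. At an unadjusted p under 0.05, 5 of the 41 were lower (background 18.9%) and 1 higher (background 6.19%). Voom called 3 of the set, namely Oas1f, Oas1g and Tlr4, and 1283 of all genes. The median log2 change was -0.18, against -0.14 for all genes, with 12 positive (35.5% of all genes) and 29 negative (64.5%). When libraries were given equal medians, all genes split into 164 called higher and 160 lower, and Oas1f and Oas1g were still called.
The EloA_WT libraries serve both comparisons, so the mutants' values below are given side by side and their likeness is not a result. Changes are log2 of RPKM + 0.1, which understates the change of low genes, and the errors after ± are SD over n = 2 libraries. The labels do not say that the 2 libraries of a group came from separate cultures, so the tests measure the spread between these libraries, which may be technical.

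**Figure D3:**
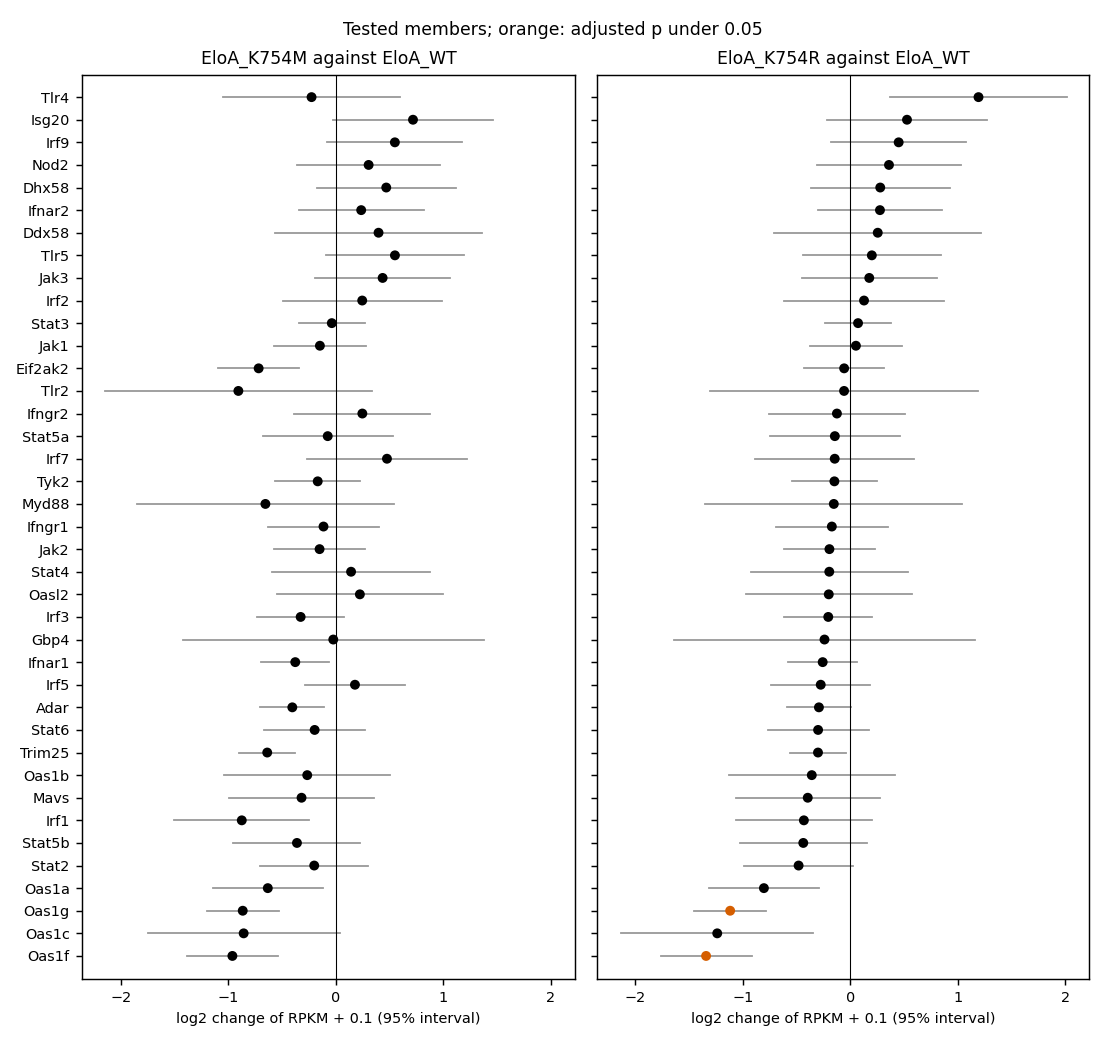
Log2 change of RPKM + 0.1 with its 95% interval for the tested genes reported here, EloA_K754M against EloA_WT on the left and EloA_K754R against EloA_WT on the right, ordered by the change on the right. Orange marks an adjusted p under 0.05, which Oas1g (-1.12) and Oas1f (-1.34) reached in EloA_K754R.

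The Oas genes encode oligoadenylate synthetases, which respond to double-stranded RNA by making a messenger that activates the nuclease RNase L. Several mouse Oas1 copies are not thought to be active enzymes. The set holds 12 Oas genes, of which Oas1a, Oas1b, Oas1c, Oas1f, Oas1g and Oasl2 were tested. Oas1f had 0.334 and 0.377 RPKM in EloA_K754M, 0.263 and 0.237 in EloA_K754R and 0.845 and 0.732 in EloA_WT. Both mutants' libraries lay below both EloA_WT libraries, and EloA_K754R lay below EloA_K754M. Oas1f thus averaged 0.250 ± 0.0188 RPKM in EloA_K754R and 0.788 ± 0.0798 in EloA_WT, and it fell by 1.34 on the log2 scale (SE 0.17, adjusted p = 0.0320, limma), 2.54-fold in RPKM + 0.1. It rests on 39 and 47 reads in EloA_K754R and 149 and 109 in EloA_WT. In EloA_K754M the change was -0.96 (SE 0.17, adjusted p = 0.0953), which did not pass.
Oas1g had 0.754 and 0.830 RPKM in EloA_K754M, 0.611 and 0.688 in EloA_K754R and 1.51 and 1.54 in EloA_WT. The groups did not overlap, and EloA_K754R was again lowest. Oas1g averaged 0.650 ± 0.0549 RPKM in EloA_K754R and 1.52 ± 0.0202 in EloA_WT, and it fell by 1.12 (SE 0.14, adjusted p = 0.0315, limma), 2.17-fold in RPKM + 0.1, on 90 and 136 reads in EloA_K754R and 265 and 228 in EloA_WT. In EloA_K754M the change was -0.87, without passing (SE 0.14, adjusted p = 0.0881).
Oas1a, the neighbour with the most similar promoter, had 0.994 and 1.38 RPKM in EloA_K754M, 0.904 and 1.17 in EloA_K754R and 1.73 and 2.02 in EloA_WT, a log2 change of -0.63 in EloA_K754M (adjusted p = 0.239) and -0.80 in EloA_K754R (adjusted p = 0.0894). Oas1c had 0.220 and 0.161 RPKM in EloA_K754M, 0.175 and 0.0794 in EloA_K754R and 0.589 and 0.299 in EloA_WT, a change of -0.86 in EloA_K754M (adjusted p = 0.342) and -1.24 in EloA_K754R (adjusted p = 0.111). For all of Oas1a, Oas1c, Oas1f and Oas1g, every mutant library lay below every EloA_WT library. That happened for 14 of the 41 tested genes in EloA_K754M and 15 in EloA_K754R, against 27.2% and 38.8% of all genes. The opposite, every mutant library above, happened for 5 in EloA_K754M and 5 in EloA_K754R, against 17.0% of all genes in EloA_K754M and 2735 of 15161 genes in EloA_K754R. These shares of the members are close to those of all genes. Oas1b, at 0.161 and 0.0889 RPKM in EloA_K754M, 0.147 and 0.0761 in EloA_K754R and 0.198 and 0.139 in EloA_WT, overlapped between groups.
The 2 calls in EloA_K754R depended on the libraries: without any 1 of the 6, neither passed. Most calls over all genes were lost then as well, so this loss is not particular to Oas1f and Oas1g. The changes lay between -1.25 and -1.43 for Oas1f and between -1.04 and -1.19 for Oas1g. With chromosome medians removed they were -1.14 (adjusted p = 0.0534) for Oas1f and -0.91 (adjusted p = 0.0657) for Oas1g, and with no filter on low values Oas1f had an adjusted p of 0.0528.

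Oas1f and Oas1g lie in a cluster on chromosome 5, whose order is Oas2, Oas3, Oas1e, Oas1c, Oas1b, Oas1f, Oas1h, Oas1g, Oas1a and Oas1d in the GENCODE M21 annotation. The members are near-identical copies in part, and the authors' counting could have split or dropped reads that match several of them, so the values of single Oas1 genes are uncertain. Of the cluster's genes that were not tested, Oas1h had 0.0722 and 0.102 RPKM in EloA_K754M, 0.0596 and 0.0534 in EloA_K754R and 0.115 and 0.119 in EloA_WT, while Oas3, Oas1d and Oas1e stayed under 0.1 RPKM in all 8 columns. Oas2, which makes longer oligoadenylates, had 19 and 31 reads in EloA_K754M, 4 and 8 in EloA_K754R and 25 and 26 in EloA_WT. Both EloA_K754R libraries were below both of EloA_WT and the EloA_K754M libraries overlapped them, with no test at this level. Among the tested neighbours outside the cluster, Ddx54, Dtx1 and Rpl6 had every mutant library below both EloA_WT libraries, like the 4 Oas1 genes above, and Ptpn11 did not. Ddx54, an RNA helicase gene on the Oas2 side, had 2.01 and 1.77 RPKM in EloA_K754M, 2.19 and 2.02 in EloA_K754R and 2.63 and 2.52 in EloA_WT, a log2 change of -0.43 in EloA_K754M (adjusted p = 0.197) and -0.28 in EloA_K754R (adjusted p = 0.228). Dtx1, a ubiquitin ligase gene next to Oas2, had a log2 change of -0.53 in EloA_K754M (adjusted p = 0.435) and -0.66 in EloA_K754R (adjusted p = 0.211). Rpl6, a ribosomal protein gene on the other side, had -0.46 in EloA_K754M (adjusted p = 0.311) and -0.53 in EloA_K754R (adjusted p = 0.145). Ptpn11, a phosphatase gene on that side, had 2.10 and 2.04 RPKM in EloA_K754M, 2.69 and 2.54 in EloA_K754R and 1.95 and 2.19 in EloA_WT, and was higher in EloA_K754R than in EloA_WT in both libraries. Over the 884 tested genes of chromosome 5 the median change was -0.07 in EloA_K754M and -0.12 in EloA_K754R.
Levels in the pooled columns differed in turn. Oas1g had 1.05 RPKM in Eed_null and 0.653 in CJ7_WT, Oas1f had 0.469 in Eed_null and 0.299 in CJ7_WT, and Oas1a had 0.916 in Eed_null and 0.633 in CJ7_WT. The CJ7_WT levels were thus nearer to those of the edited cells, which the labels place in the line CJ7, than to EloA_WT. No replicates back the pooled levels, and this likeness was not tested.

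**Figure D4:**
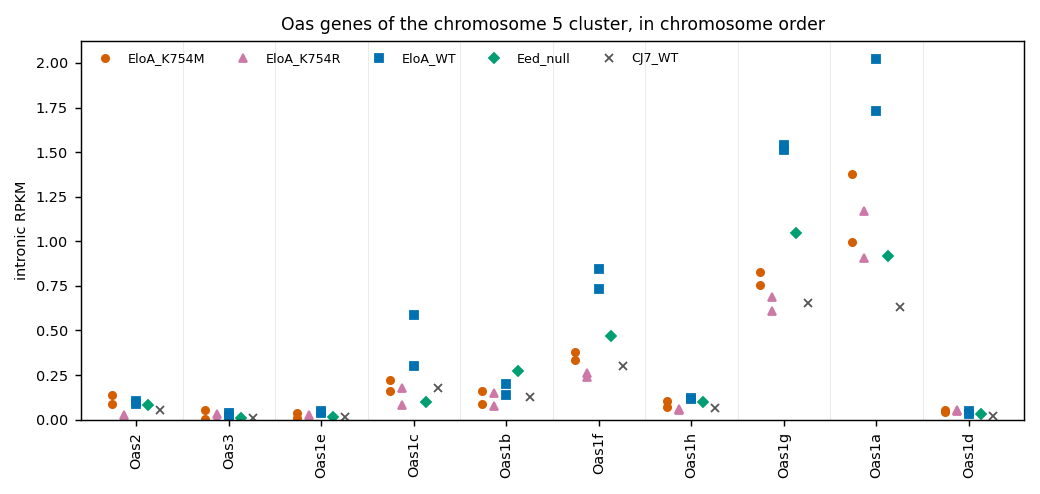
Intronic RPKM of the Oas genes of the chromosome 5 cluster, in chromosome order. Each point is 1 library or 1 pooled column. For Oas1c, Oas1f, Oas1g and Oas1a the EloA_K754M and EloA_K754R libraries lie below both EloA_WT libraries, with Oas1g at 0.754 and 0.830 RPKM in EloA_K754M, 0.611 and 0.688 in EloA_K754R and 1.51 and 1.54 in EloA_WT. Oas1b overlaps between groups, and Oas3, Oas1e and Oas1d lie near 0.

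The receptors and kinases had no call in either mutant. Ifnar1, a chain of the type I interferon receptor, had 0.985 and 0.989 RPKM in EloA_K754M, 1.12 and 1.04 in EloA_K754R and 1.39 and 1.24 in EloA_WT, so all 4 mutant libraries lay below EloA_WT. The change was -0.38 (SE 0.13, adjusted p = 0.257) in EloA_K754M and -0.26 (adjusted p = 0.279) in EloA_K754R. Its partner Ifnar2 had 0.285 and 0.310 RPKM in EloA_K754M, 0.324 and 0.293 in EloA_K754R and 0.302 and 0.183 in EloA_WT, with overlap and changes of 0.24 in EloA_K754M and 0.28 in EloA_K754R. The type II receptor genes Ifngr1 and Ifngr2 had log2 changes of -0.11 and 0.25 in EloA_K754M and -0.17 and -0.12 in EloA_K754R, all within 95% intervals that include 0.
Jak1, the kinase shared by interferon and gp130 receptors, had 1.70 and 1.32 RPKM in EloA_K754M, 1.88 and 1.60 in EloA_K754R and 1.80 and 1.55 in EloA_WT. Its groups overlapped, with changes of -0.15 in EloA_K754M and 0.05 in EloA_K754R. Jak2 had log2 changes of -0.15 in EloA_K754M and -0.19 in EloA_K754R, and Tyk2, the kinase held by Ifnar1, had -0.17 in EloA_K754M and -0.15 in EloA_K754R. Jak3, which serves cytokine receptors of lymphocytes, had 1.70 and 2.06 RPKM in EloA_K754M, 1.72 and 1.39 in EloA_K754R and 1.74 and 1.06 in EloA_WT and overlapped too. Its gene overlaps Insl3 on the same strand, so reads of the 2 cannot be told apart.

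Stat3, the target of LIF, was the most transcribed Stat gene and was not called in either mutant. It had 2.32 and 2.74 RPKM in EloA_K754M, 2.72 and 2.74 in EloA_K754R and 2.55 and 2.64 in EloA_WT, on 3073 to 5356 reads a library. The changes were -0.04 in EloA_K754M (95% interval -0.35 to 0.27) and 0.07 in EloA_K754R (-0.24 to 0.38). The value in EloA_K754R rests on the scaling: Stat3 lies on chromosome 11, whose median was -0.56 there, and the change was 0.70 (adjusted p = 0.142) with chromosome medians removed and 0.26 (adjusted p = 0.362) with equal library medians. The other parts of the LIF route were Lifr, at 2.88 and 2.74 RPKM in EloA_K754M, 2.19 and 2.51 in EloA_K754R and 2.36 and 2.56 in EloA_WT, and Il6st. Il6st, which encodes the gp130 chain, had 2.81 and 2.43 RPKM in EloA_K754M, 3.93 and 4.45 in EloA_K754R and 4.00 and 4.48 in EloA_WT. Among the Elongin A groups it was low in EloA_K754M alone. Its changes of -0.68 in EloA_K754M (adjusted p = 0.120) and -0.02 in EloA_K754R (adjusted p = 0.955) did not pass, nor did -0.66 (adjusted p = 0.106) between the mutants. The pooled columns were as low, with Il6st at 2.83 RPKM in CJ7_WT and 2.38 in Eed_null. Socs3, a Stat3 target that dampens gp130 signalling, had 3.52 and 1.44 RPKM in EloA_K754M, 2.74 and 2.00 in EloA_K754R and 4.70 and 1.99 in EloA_WT, with replicate 1 above replicate 2 in every group.
Stat2, the partner of Irf9 in the ISRE complex, did not pass either. It had 0.281 and 0.370 RPKM in EloA_K754M, 0.255 and 0.242 in EloA_K754R and 0.426 and 0.350 in EloA_WT, with EloA_K754R below EloA_WT in both libraries (log2 change -0.48, adjusted p = 0.214). Stat5a and Stat5b, which act below many cytokine receptors, had log2 changes of -0.08 and -0.36 in EloA_K754M and -0.14 and -0.44 in EloA_K754R.

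Among the interferon regulatory factors, which switch on interferon and its targets, Irf9 and Irf1 lay farthest from EloA_WT. Irf9 had 1.76 and 1.87 RPKM in EloA_K754M, 1.83 and 1.56 in EloA_K754R and 0.913 and 1.59 in EloA_WT. Both EloA_K754M libraries lay above EloA_WT, EloA_K754R overlapped it, and EloA_WT replicate 1 was low. The changes were 0.55 in EloA_K754M (adjusted p = 0.382) and 0.45 in EloA_K754R (adjusted p = 0.331) on 38 to 73 reads a library. Irf9 overlaps Rnf31 on the same strand, so its introns may hold reads of both. Irf7, the master inducer of type I interferon, had 1.16 and 0.785 RPKM in EloA_K754M, 0.569 and 0.606 in EloA_K754R and 0.888 and 0.485 in EloA_WT. Those values rest on 6 to 13 reads a library and gave changes of 0.48 in EloA_K754M and -0.15 in EloA_K754R. Both mutants overlapped EloA_WT, and EloA_K754M lay above EloA_K754R.
Irf1, an early interferon target and activator, had 0.988 and 0.678 RPKM in EloA_K754M, 1.08 and 1.23 in EloA_K754R and 1.96 and 1.28 in EloA_WT. All 4 mutant libraries were below EloA_WT, with changes of -0.88 in EloA_K754M (adjusted p = 0.202) and -0.43 in EloA_K754R (adjusted p = 0.349). Irf1 lies on chromosome 11, where the 1314 tested genes had a median change of -0.46 in EloA_K754M and -0.56 in EloA_K754R, and with chromosome medians removed its change was -0.37 in EloA_K754M and 0.19 in EloA_K754R. The other chromosome 11 genes of the set are Trim25, Dhx58, Stat3, Stat5a and Stat5b, and their values in both mutants stand beside the same medians. Irf5, a factor of myeloid cells, had 1.52 and 1.99 RPKM in EloA_K754M, 1.18 and 1.31 in EloA_K754R and 1.36 and 1.72 in EloA_WT (changes 0.18 in EloA_K754M and -0.28 in EloA_K754R), and the antisense gene Tnpo3 overlaps it. Without strand information, which is not given, reads of such antisense partners cannot be told apart, and the same holds for Irf3 with Bcl2l12, Irf7 with Phrf1, Adar with Chrnb2, and Stat3 with Stat5a. In all, 20 of the 74 genes overlap another gene of the table.

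Among the tested sensors of RNA and their partners, Eif2ak2 and Trim25 had the most negative changes in EloA_K754M, followed by Adar and Mavs. Trim25, named here for its level, had 3.56 and 3.79 RPKM in EloA_K754M, 4.74 and 4.59 in EloA_K754R and 5.81 and 5.73 in EloA_WT. The 3 groups did not overlap, and the changes were -0.64 (SE 0.11, adjusted p = 0.0923) in EloA_K754M and -0.30 (adjusted p = 0.158) in EloA_K754R, beside the chromosome 11 medians of -0.46 in EloA_K754M and -0.56 in EloA_K754R. Eif2ak2, which encodes the kinase PKR that halts translation on sensing double-stranded RNA, had 0.673 and 0.641 RPKM in EloA_K754M, 1.18 and 1.01 in EloA_K754R and 1.24 and 1.05 in EloA_WT. Only the EloA_K754M libraries were low, and the EloA_K754R and EloA_WT libraries overlapped. The change was -0.72 (SE 0.15, adjusted p = 0.125) in EloA_K754M, -0.06 in EloA_K754R, and -0.66 (adjusted p = 0.120) between the mutants.
Adar, whose product edits double-stranded RNA and so shields it from the sensors, had 2.35 and 2.04 RPKM in EloA_K754M, 2.41 and 2.34 in EloA_K754R and 2.99 and 2.87 in EloA_WT, with all mutant libraries below EloA_WT and changes of -0.41 in EloA_K754M (adjusted p = 0.209) and -0.29 in EloA_K754R (adjusted p = 0.206). Ddx58 had 0.382 and 0.661 RPKM in EloA_K754M, 0.358 and 0.557 in EloA_K754R and 0.239 and 0.523 in EloA_WT. Replicate 2 was above replicate 1 in all 3 groups, and the change of 0.40 in EloA_K754M was -0.04 without EloA_WT replicate 1. Ifih1, the gene of MDA5, had 12 and 76 reads in EloA_K754M, 12 and 38 in EloA_K754R and 11 and 26 in EloA_WT and followed the pattern of silent genes. Dhx58, a regulator of both sensors, had log2 changes of 0.47 in EloA_K754M and 0.28 in EloA_K754R, and the adaptor Mavs had -0.32 in EloA_K754M and -0.40 in EloA_K754R.
Of the Toll-like receptors, Tlr4, which detects bacterial lipopolysaccharide, had 0.126 and 0.269 RPKM in EloA_K754M, 0.540 and 0.834 in EloA_K754R and 0.195 and 0.288 in EloA_WT, on 362 and 790 reads in EloA_K754M, 1700 and 3520 in EloA_K754R and 731 and 911 in EloA_WT. Only EloA_K754R was high, and both its libraries exceeded all the others. The change of 1.19 (SE 0.33, adjusted p = 0.103) did not pass, nor did -1.42 between the mutants (SE 0.33, adjusted p = 0.123), whereas voom on recovered reads called both, with adjusted p = 0.0301 for EloA_K754R against EloA_WT. Tlr2, a receptor of bacterial lipoproteins, had 0.137 and 0.373 RPKM in EloA_K754M, 0.397 and 0.630 in EloA_K754R and 0.835 and 0.321 in EloA_WT on 5 to 40 reads. Both mutants overlapped EloA_WT, and EloA_K754M lay below EloA_K754R. Tlr3, a receptor of double-stranded RNA below the filter, had 0 and 84 reads in EloA_K754M, 26 and 45 in EloA_K754R and 24 and 26 in EloA_WT.

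Between the mutants, no gene of the set passed. EloA_K754M against EloA_K754R gave 0 calls among the 41, against 0.29% of all genes. At an unadjusted p under 0.05, 3 were lower (Eif2ak2, Tlr4 and Trim25, background 6.87%) and 0 higher (background 11.6%). Voom called Tlr4 of the set and 454 of all genes. The median log2 change was 0.09 for the set and 0.09 for all genes, with 26 positive (60.5% of all genes) and 15 negative (39.4%). Both libraries of EloA_K754M lay above both of EloA_K754R for 9 genes (31.9% of all genes) and below for 7 (18.6%). Among genes that reached 0.5 RPKM in the higher group, the largest positive values given here were 0.62 for Irf7, 0.45 for Irf5, 0.26 for Jak3 and 0.25 for Oas1g. Genes below that level had values up to 0.42 (Oasl2). The largest negative ones at 0.5 RPKM or more, after Tlr4, were -0.85 for Tlr2, -0.66 for Eif2ak2, -0.44 for Irf1 and -0.34 for Trim25. For Oas1f and Oas1g the differences were 0.38 (95% interval -0.04 to 0.80) and 0.25 (-0.08 to 0.59), so a call in EloA_K754R alone does not show that the 2 substitutions differ at these genes.

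Eed_null was compared with CJ7_WT without a test, as each is 1 pooled column, and folds carry exact 95% intervals of the read ratio that cover counting error only. The comparison took genes that averaged 0.1 RPKM in these 2 columns, which were 41 genes of the set, with Oasl1 in and Gbp4 out. Past 1.5-fold in RPKM + 0.1, 8 of the 41 genes were higher in Eed_null and 2 lower, against 16.0% and 5.37% of the 14890 genes compared, and the median log2 ratio was 0.15, against 0.11 for all genes. Among those higher were Ifngr2, Nod2, Oasl2, Oas1b, Stat2, Ifnar2 and Oas1g. The count rests on the offset, being 17 in both directions with 0.02 RPKM and 0 with 0.5 RPKM.
On the receptor side, Ifngr2, the signalling chain of the type II receptor, had 0.450 RPKM in Eed_null and 0.140 in CJ7_WT, a ratio of 3.23 (2.55 to 4.11) on 267 and 99 reads. Ifnar2 had 0.782 RPKM in Eed_null and 0.465 in CJ7_WT, a ratio of 1.68 (1.52 to 1.86). The other chain of each pair was closer, with ratios of 1.52 (1.25 to 1.86) for Ifngr1 and 1.21 (1.12 to 1.31) for Ifnar1. Stat2 had 1.40 RPKM in Eed_null and 0.826 in CJ7_WT, a ratio of 1.70 (1.54 to 1.87). Stat3 was near even at 1.02 (0.994 to 1.04). Jak1 had a ratio of 1.44 (1.41 to 1.47), Jak2 1.33 (1.27 to 1.41) and Tyk2 0.909 (0.848 to 0.974), all inside 1.5-fold.
Nod2, a sensor of bacterial cell wall fragments, had the highest ratio of the set, with 0.268 RPKM in Eed_null and 0.0605 in CJ7_WT on 388 and 105 reads, or 4.42 (3.56 to 5.54). Past 1.5-fold in RPKM + 0.1, Eif2ak2 and Ddx58 were the genes lower in Eed_null. Eif2ak2 had 1.27 RPKM in Eed_null and 2.09 in CJ7_WT, a ratio of 0.607 (0.578 to 0.636), and Ddx58 had 0.196 RPKM in Eed_null and 0.355 in CJ7_WT, a ratio of 0.553 (0.494 to 0.619). Dhx58 at 0.798 (0.521 to 1.21), Mavs at 1.12 (0.983 to 1.28) and Adar at 1.01 (0.977 to 1.05) were within 1.5-fold. In the Oas1 cluster Oas1g had a ratio of 1.60 (1.37 to 1.87) and Oas1a one of 1.45 (1.23 to 1.70), while Oas1c went the other way at 0.563 (0.377 to 0.829). Oas1c, like Stat4 at 0.617 (0.573 to 0.664), has a low level and stayed inside 1.5-fold once the offset was added.

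**Figure D5:**
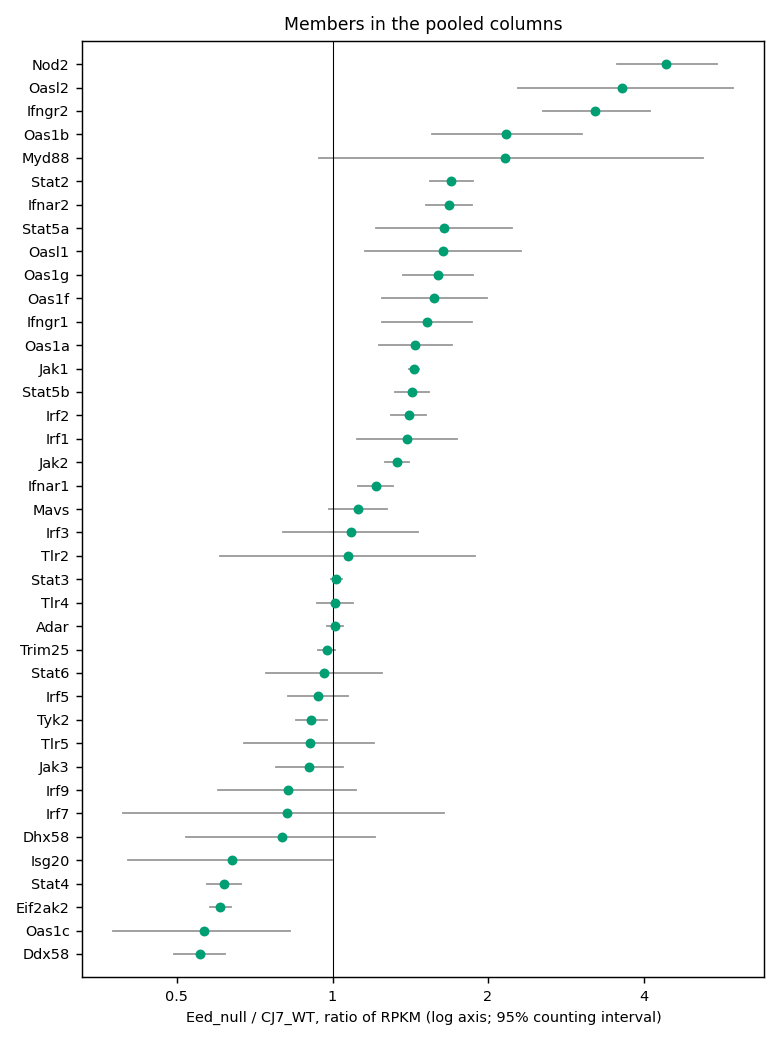
Ratio of intronic RPKM, Eed_null over CJ7_WT, for the genes of the set reported here and compared between the pooled columns, on a log axis with exact 95% intervals for counting error. Nod2 (4.42), Oasl2 (3.64) and Ifngr2 (3.23) lie highest, and Ddx58 (0.553) and Eif2ak2 (0.607) are among the lowest.

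Genes of neighbouring pathways were counted on lists outside the set. Of 38 tested genes of other innate sensing and signalling, 0 were called in EloA_K754M, against 0.218% of all genes. The 1 called in EloA_K754R, against 3.48% of all genes, was Rnf135, which fell. At an unadjusted p under 0.05 there were 10 in EloA_K754M, where 10.7% of all genes were lower and 4.65% higher. In EloA_K754R there were 9, where 18.9% of all genes were lower and 6.19% higher. Rnf135, a ubiquitin ligase that activates RIG-I, had 0.971 and 0.976 RPKM in EloA_K754M, 0.609 and 0.602 in EloA_K754R and 1.51 and 1.48 in EloA_WT, and it fell by 1.18 in EloA_K754R (SE 0.12, adjusted p = 0.0234, limma). It lies on chromosome 11. Aim2, a sensor of cytosolic DNA, was low in both mutants at 0.622 and 0.649 RPKM in EloA_K754M, 1.16 and 1.36 in EloA_K754R and 1.65 and 1.59 in EloA_WT, and its change of -1.23 in EloA_K754M had an adjusted p of 0.0533. The list's median change was -0.05 in EloA_K754M and -0.10 in EloA_K754R, near those of all genes (-0.06 in EloA_K754M and -0.14 in EloA_K754R).
Of 28 other interferon-stimulated genes tested, 0 were called in either mutant, against 0.218% of all genes in EloA_K754M and 3.48% in EloA_K754R. At an unadjusted p under 0.05 there were 8 in EloA_K754M and 11 in EloA_K754R. Of all genes, 10.7% were lower and 4.65% higher in EloA_K754M at that level, and 18.9% lower and 6.19% higher in EloA_K754R. The list's median change was -0.30 in EloA_K754M and -0.53 in EloA_K754R, below that of all genes. The class I gene H2-D1, which presents peptides to T cells, had 0.869 and 1.06 RPKM in EloA_K754M, 0.395 and 0.557 in EloA_K754R and 1.04 and 1.29 in EloA_WT (change -1.14 in EloA_K754R, adjusted p = 0.0504). Pml, the scaffold of nuclear bodies, had 2.64 and 2.46 RPKM in EloA_K754M, 4.12 and 3.74 in EloA_K754R and 4.48 and 4.34 in EloA_WT (change -0.77 in EloA_K754M, adjusted p = 0.0810). Ifi35 had a log2 change of -1.05 in EloA_K754M (adjusted p = 0.169), and Ifitm1, whose protein blocks virus entry, had one of -1.16 in EloA_K754R (adjusted p = 0.0627). In Eed_null, 11 of 26 such genes were past 1.5-fold higher and 0 lower, against 16.0% and 5.37% of all genes. Of 39 genes of other innate sensing and signalling, 4 were higher and 2 lower. Of 34 genes of LIF, gp130 and JAK-STAT signalling, 3 were higher and 0 lower. These counts use RPKM + 0.1, the offset on which the count of the set rested. Of 36 genes of LIF, gp130 and JAK-STAT signalling, 0 were called in either mutant. At an unadjusted p under 0.05 there were 3 in EloA_K754M and 4 in EloA_K754R, beside the same shares of all genes as above. The medians of this list were -0.01 in EloA_K754M and 0.05 in EloA_K754R. The smallest p belonged to Socs7 (-0.64, adjusted p = 0.114) and then Il6st in EloA_K754M, and to Pim3 (-0.44) and Klf5 (0.48) in EloA_K754R.
Fibroblast markers moved beside these values. All 18 tested of 22 listed had positive changes in both mutants, against 42.6% of all genes in EloA_K754M and 35.5% in EloA_K754R. The 22 summed to 25.8 to 30.2 RPKM in EloA_K754M, 28.6 to 32.4 in EloA_K754R and 20.9 to 21.5 in EloA_WT. In the pooled columns they summed to 28.9 RPKM in CJ7_WT and 27.5 in Eed_null, so EloA_WT was the lowest group. Tnc, a matrix glycoprotein, rose in EloA_K754R (change 0.82, adjusted p = 0.0438, limma). It was the 1 called of 18, against 0.686% of all genes called higher there. No listed marker was at 0 in every library. The part of fibroblast RNA in the values of the interferon genes was not tested.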

How the data were processed

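Genes were measured in 10 samples of 5 groups, named by the sample titles. The authors deposited 1 table of intronic RPKM in 8 columns. By the file headers these are 6 single libraries and 2 averages (Eed_null and CJ7_WT). The 2 averages are called pooled columns here, and their counting intervals take the reads of each as 1 pool. The submitters' processing notes name BWA, without a version, and the build mm9. Which counter, annotation, strand setting and read total were used is not given in the sources at hand. Nothing gives RNA quality or a batch.

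The RPKM move in steps of whole reads. These could be recovered for 20810 of the 20817 genes that had 6 or more columns above 0 (99.97%), with a tolerance of 0.01 read that reached 0.06 read at high values, against 1 of 300 genes whose values had been jittered. The 2 pooled columns also gave whole reads. Depth is the sum of these reads, and intervals cover counting error only, since reads without molecular identifiers are not independent molecules.

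For the 6 libraries, log2(RPKM + 0.1) was computed from the deposited values and modelled in R 4.3.3 by limma 3.58.1, all 3 groups together, using lmFit, contrasts.fit and eBayes with trend. The model covered 15161 genes whose mean reached 0.1 RPKM, with two-sided tests, Benjamini-Hochberg adjustment over all of them and a threshold of 0.05. There were 3 residual and 2.76 prior degrees of freedom, and the median SD of a gene between replicates was 0.195. The fit was checked on simulated data. A gene is called, and said to have risen or fallen, where the adjusted p is under 0.05. Pooled columns were compared as a ratio with exact 95% intervals (scipy 1.17.1) and no test, over genes whose mean in the 2 columns reached 0.1 RPKM. Called there means past 1.5-fold in RPKM + 0.1.

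The members, the lists and the rule for named genes were chosen with earlier results of these data known. The rule took the called genes, the 5 largest changes each way among genes of at least 0.5 RPKM in the higher group, the main receptors, kinases, Stats and RNA sensors, and, of other lists, the called genes or the 2 with the smallest p. Chromosomes, overlaps and the order of the Oas cluster came from GENCODE M21 by gene ID (22887 genes matched, and Gbp1 and Gbp10 did not). Overlaps and order used the coordinates of that annotation, whose build differs from mm9. Promoters came from RefSeq. Alternatives were other offsets, filters and scalings, chromosome medians removed, voom on recovered reads, the replicate number as a block, and leaving out each library. Some results of the set are not reported here.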

Additional observations from a re-analysis of the deposited data

How the results depend on the processing

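Counts below are genes called of all genes for EloA_K754M against EloA_WT (33 as reported), EloA_K754R against EloA_WT (527) and EloA_K754M against EloA_K754R (44), then of the set (0, 2 and 0). With chromosome medians removed, the first came to 15 and the second to 100, with 0 of the set. Equal library medians gave 16, 324 and 68. Without a filter on low values the counts were 16, 160 and 26, with 1 of the set (Oas1g) in EloA_K754R. A mean of at least 0.5 RPKM gave 12 between the mutants and 1 of the set (Oas1g) in EloA_K754R. Quantile normalization gave 17, 333 and 90, with 1 of the set (Oas1f) in EloA_K754R. Voom on recovered reads gave 342, 1283 and 454, with 1 of the set (Tlr4) between the mutants. Leaving out 1 library gave between 2 and 52, between 1 and 9, and between 5 and 62 of all genes, and between 0 and 0 of the set in each comparison. The lone library left in a group is then taken to vary like the others. With the replicate number as a block, the counts were 227, 1777 and 355, with 1 (Oas1g), 5 (Oas1a, Oas1c, Oas1f, Oas1g and Tlr4) and 1 (Tlr4) of the set. Samples with the same number deviated together (r = 0.166, 0.197 and 0.152 across genes for the 3 pairs of groups), but each comparison holds only 2 pairs and no label says what the number stands for, so the block is not used elsewhere. Of the 10 genes past 1.5-fold between Eed_null and CJ7_WT, an offset of 0.02 RPKM gave 17, 0.5 RPKM gave 0 and a mean of at least 0.5 RPKM gave 4. The log2 change of Irf1 in EloA_K754R was 0.19 with chromosome medians removed. Without 1 library, the change lay between -0.0065 (without EloA_K754M replicate 2) and 0.36 for Irf5 and between -0.042 (without EloA_WT replicate 1) and 0.84 for Ddx58 in EloA_K754M. It lay between -0.058 (without EloA_K754R replicate 1) and 0.16 for Jak1, which was also negative without EloA_WT replicate 2 (-0.05), and between -0.16 (without EloA_WT replicate 2) and 0.51 for Jak3 in EloA_K754R. None of these had been called, and the causes were not tested. Of 482 values of single genes under the alternatives, 447 kept their direction and side of the threshold. With 2 libraries a group and 6 to 13 reads for genes such as Irf7, small changes were not detectable at this depth.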

Other observations

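Tlr13, a sensor of bacterial ribosomal RNA that lies below the filter, was singled out after its values were seen. It had 6 reads in Eed_null and 71 reads in CJ7_WT, or 0.0057 and 0.0560 RPKM. In the Elongin A libraries it had 0 and 22 reads in EloA_K754M, 2 and 20 in EloA_K754R and 4 and 12 in EloA_WT, where the replicate 2 libraries were again the higher ones. The pooled columns have no replicates, so this difference covers 1 column of each kind.

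Oasl1, a paralogue of the Oas genes that represses Irf7 translation in the mouse, was likewise below the filter in the Elongin A libraries, with 5 and 15 reads in EloA_K754M, 6 and 10 in EloA_K754R and 21 and 10 in EloA_WT. It had 82 reads in Eed_null and 60 in CJ7_WT.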
